A study of Solanum tuberosum with 2 samples.

Results

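Genes that lie side by side on a chromosome and were all at least 4-fold lower in the cut library than in the uncut library are described here, as runs of neighbours. The values came from 2 mRNA libraries of wild type Solanum tuberosum cv. Desirée grown in vitro, both 4 weeks old. The uncut library was labelled as without stress and its control material was intact plantlets. The cut library was labelled with cutting stress and its material was explants of 1 node that carried a leaf. Each library pooled 3 biological replicates according to the methods of a study by the same group, which leaves 1 library for each condition and gives no replicate check of any difference. The labels give leaf as the tissue of both libraries, while the treatment text names plantlets for the one and node segments for the other. Whether a gene was lower through the cutting or through the organs in the sample therefore cannot be told apart. In such bulk samples, fewer cells of a type and less RNA per cell cannot be told apart either.

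Genes with potato genome (PGSC) identifiers on chromosomes 1 to 12 and at least 50 reads over both libraries were put in order by their start. There were 21197 such genes among 37475, from 40430 features in all. A gene was called lower when the cut value minus the uncut value, in log2 RPM (reads scaled to the total of the library), was -2 or less. That held for 1559 genes, a background of 7.35%. Runs of at least 2 consecutive lower genes numbered 158 and held 357 genes, which were 22.9% of the lower genes. The other 1202 lower genes had no lower neighbour. Because the difference itself chose the members, their counts and differences are a description and nothing is read from them against the background. The same procedure in the other direction, a value of 2 or more, gave 1743 genes (8.22%) and 245 runs with 605 genes.

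Neighbouring plant genes often descend from tandem duplication, which leaves copies of a family next to each other on one strand. Neighbours can also share open or closed chromatin, and genes whose starts face each other can share the stretch of DNA between them as a promoter. Gene models can moreover overlap, or split one gene into several, and then neighbours can hold the same reads. Position, spacing, strand and overlap were not used to choose a gene as lower, and they are given below beside the same values over all neighbouring genes.

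The uncut library held 37955480 reads by the size of 1 read in the deposited values, and the cut library 33850940. The reads assigned to genes came to 67314360 and 60081924, so they exceeded those totals. Intervals given below are exact 95% intervals of the ratio of 2 counts, which cover counting error only, and counting of both mates of a fragment would make them too narrow. The median difference over the 21197 genes was -0.34, and 260 of the 357 members stayed at -2 or less when that median was set to 0, with the highest member then at -1.66.

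Most runs were short. There were 128 runs of 2 genes, 24 of 3 genes, 3 of 4 genes, 2 of 5 genes and 1 of 7 genes, so that 101 of the 357 genes lay in runs of at least 3. A run spanned a median of 14509 bp from the first start to the last end. The quartiles were 5978 and 23696 bp, the shortest run took 1649 bp and the longest 1201987 bp. That longest run, on chromosome 4, consisted of PGSC0003DMG400027920 and PGSC0003DMG400030045 with 20 genes under 50 reads between them. Its neighbours were thus next to each other only after genes with few or no reads had been passed over.

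Runs were found on each of the 12 chromosomes. The share of genes that lay in a run was lowest on chromosome 8, at 1.13% (7 runs), and highest on chromosome 5, at 2.41% (14 runs). The share of lower genes varied less in relative terms, from 6.65% on chromosome 11 to 8.47% on chromosome 5. Chromosomes 2 and 3 held the most genes in runs, 45 each, and chromosome 7 had no run of 3 or more. Chromosomes 1, 5 and 9 had 4 runs of that size each.

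**Figure D1:**
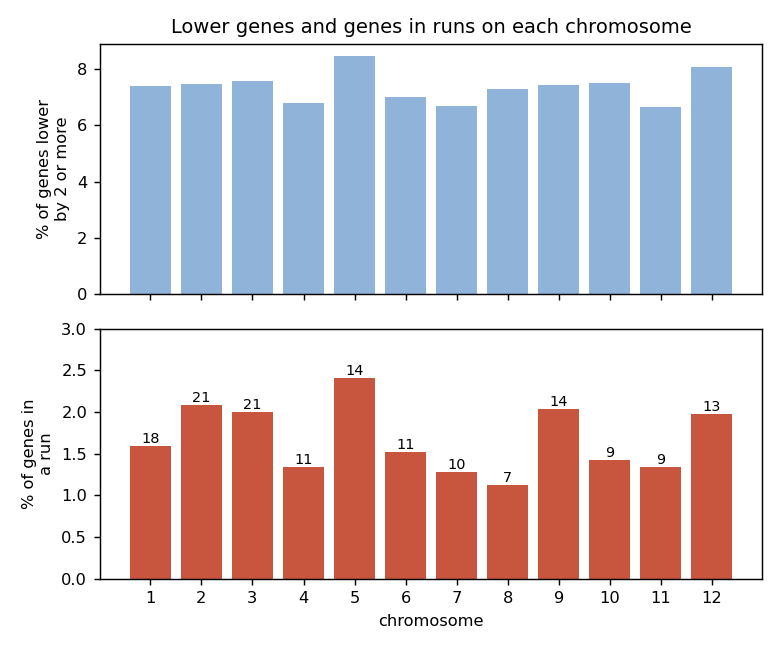
Percent of genes lower by 2 or more in the cut library (top) and percent of genes in a run (bottom) on chromosomes 1 to 12, among genes with at least 50 reads; the number over each lower bar is the number of runs. The share in runs lies between 1.13% on chromosome 8 and 2.41% on chromosome 5.

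The members covered a wide range of levels. The uncut library had between 42 and 212843 reads for a member (median 487), and the cut library between 0 and 44985 (median 70). On the log2 RPM scale the median level was 3.68 uncut and 1.05 cut. The median difference was -2.62, the lowest among the 351 members with reads in both libraries was -6.62, and 121 members (33.9%) stood at -3 or less. Of the lower genes outside runs 32.8% did so, with a median difference of -2.60. Members and lower genes with no lower neighbour were chosen by the same limit on the difference. That their differences were about as large was thus in part fixed by the choice, and nothing is read from it.

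For levels to be set beside those of other genes they were divided by the length of the gene in kb, introns included, because exon lengths were not in the tables used here. In the uncut library the members had a median of 8.25 RPM per kb, lower genes outside runs 6.40, and all genes with at least 50 reads 7.12. In the cut library the medians were 1.02, 0.955 and 5.97 RPM per kb. A lower gene with at least 50 reads must have most of them in the uncut library. Levels of both groups of lower genes were thus in part fixed by the choice, and nothing is read from them against all genes. Gene length was compared between the same 3 groups. The median length of members was 1716 bp, against 1882 bp for lower genes outside runs and 3457 bp for all genes with at least 50 reads. Genes under 1 kb made up 27.7%, 22.0% and 11.6% of the 3 groups. Gene density hardly differed, with medians of 63, 59 and 60 such genes within 500 kb on both sides.

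**Figure D2:**
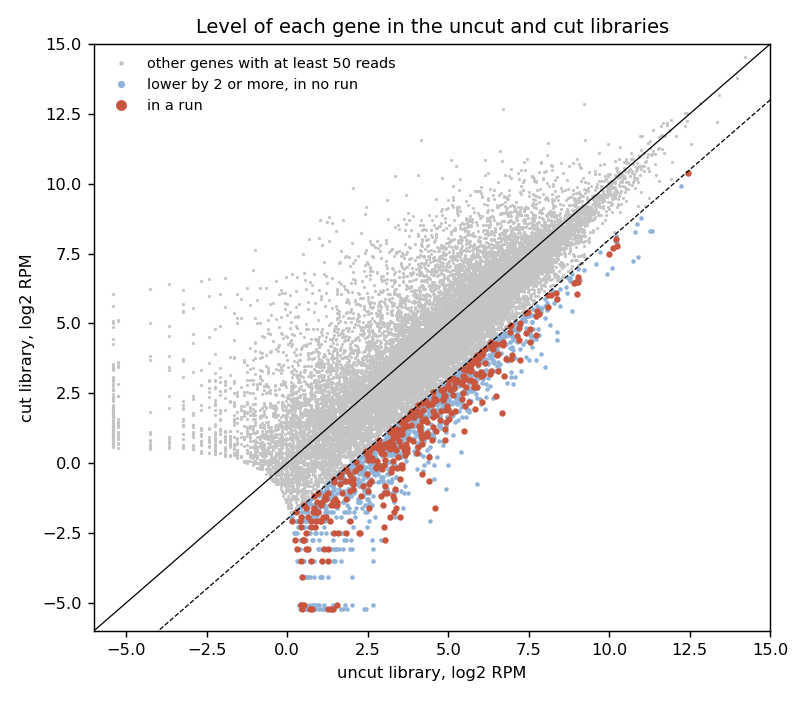
Level of each gene in the uncut library (horizontal axis, log2 RPM) and in the cut library (vertical axis, log2 RPM), for genes with at least 50 reads; the solid line marks equal values and the dashed line a difference of -2. Genes in runs (red) lie at or below the dashed line by construction, at uncut levels from 0.15 to 12.45, mixed with the lower genes in no run (blue).

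By counting error alone, the intervals set apart members well below the limit from those near it. They hold no variation between plants or libraries. The upper bound was at -2 or less for 240 of the 357 members and at -1 or less for all 357. In 72 of the 158 runs every member had its upper bound at -2 or less. There were 49 members with under 10 reads in the cut library and 6 with 0. With 0 taken as 3 reads, these 6 were lower by at least 15.5-fold (PGSC0003DMG400001890, 52 reads in the uncut library) to at least 30.3-fold (PGSC0003DMG400026956, 102 reads).

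The genes nearest to the limit on its 2 sides were picked for being close to it. The 3 members nearest to it were PGSC0003DMG400003424 at -2.0003, PGSC0003DMG401024472 at -2.0048 and PGSC0003DMG400019139 at -2.0088. The nearest genes beside a run that were not members were PGSC0003DMG401023679 at -1.9904, PGSC0003DMG400018693 at -1.9902 and PGSC0003DMG400027115 at -1.9685. The intervals of all 6 held -2. Between -2.1 and -2 lay 38 of the 357 members, and between -2 and -1.9 lay 7 of the 314 genes next to a run. These are unlike sets, and the 2 counts are not compared.

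The largest run lay on chromosome 6 (41998000 to 42111969, SolTub 3.0) and held 7 genes, all on the minus strand. In the uncut library its first gene, PGSC0003DMG400019776, had 81 reads and in the cut library 3, a difference of -4.59. The next, PGSC0003DMG403019771, had 1123 and 78 reads, a difference of -3.68 (95% interval -4.03 to -3.35). PGSC0003DMG400019774 followed with 175 and 30 reads, at -2.38. These are 3 of the 7 genes, and the reads of the first are too few for a narrow interval (-6.90 to -2.99).

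PGSC0003DMG400019773 had the most reads of this run, 1683 uncut and 296 cut, and the smallest difference, -2.34 (-2.53 to -2.16). PGSC0003DMG400019772 had 499 and 49 reads, at -3.18. At the far end PGSC0003DMG401019771 had 1081 and 164 reads (-2.56) and PGSC0003DMG402019771, which lies inside it on the same strand, 633 and 51 reads (-3.47). These overlapping models share the last 6 digits of their identifiers with the second gene of the run, from which 3 other members part them, and reads that fall on both models cannot be told apart. When models with the same last digits were merged, the longest run anywhere held 5 genes. Between the members lay 3 genes under 50 reads. All 7 members stayed in the run when the median difference was set to 0.

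A run of 5 genes on chromosome 8 (54286145 to 54295826) was the most compact of the large runs, with gaps of 385 to 1800 bp and genes on both strands. PGSC0003DMG400003042 had 110 reads uncut and 1 read cut, a difference of -6.62 (-11.93 to -4.11). Its neighbour on the minus strand, PGSC0003DMG400003056, had 222 and 43 reads and a difference of only -2.20. PGSC0003DMG400003043, again on the plus strand, had 385 and 18 reads, at -4.25 (-5.02 to -3.57).

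The difference alternated along the first 3 genes with strand. PGSC0003DMG400003044 on the plus strand had 1049 and 123 reads (-2.93), and PGSC0003DMG400003057 on the minus strand 495 and 101 reads (-2.13). All 3 plus-strand genes were lower by more than both minus-strand genes, although the intervals of PGSC0003DMG400003044 (-3.21 to -2.66) and of PGSC0003DMG400003056 (-2.71 to -1.73) overlap. The spans of these 5 genes do not overlap. With the median difference set to 0, PGSC0003DMG400003056 (-1.87) and PGSC0003DMG400003057 (-1.79) stood above -2, which left a pair of PGSC0003DMG400003043 and PGSC0003DMG400003044.

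On chromosome 1, 3 runs followed each other within 145.5 kb (86927637 to 87073150) and formed the closest such group. Together they held 11 of the 19 genes with at least 50 reads there. Members were short, 498 to 1931 bp, with 9 of 11 under 1 kb, and 7 lay on the minus and 4 on the plus strand. The first run held 5 genes from PGSC0003DMG400001655 (430 reads uncut and 70 cut, -2.45) to PGSC0003DMG400001614 (63 and 8 reads, -2.81). Between them lay PGSC0003DMG400001668 with 182 and 6 reads (-4.76), PGSC0003DMG400001667 with 231 and 22 reads (-3.23) and PGSC0003DMG400001615 with 274 and 60 reads (-2.03). Among these PGSC0003DMG400001668 was the lowest, and the interval of PGSC0003DMG400001615 (-2.45 to -1.62) reached above -2. With the median difference set to 0 that gene stood at -1.69, which left a run of 3.

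A pair, PGSC0003DMG400001609 (237 and 38 reads, -2.48) and PGSC0003DMG400001607 (467 and 47 reads, -3.15), formed the second run of the group. The third began with PGSC0003DMG400001601 (424 and 69 reads, -2.45) on the minus strand. It continued on the plus strand with PGSC0003DMG400001649 (764 and 70 reads, -3.28), PGSC0003DMG400001648 (370 and 55 reads, -2.58) and PGSC0003DMG400001647 (1134 and 180 reads, -2.49). The cut library thus had under 200 reads for each of the 11 members.

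The 8 other genes with at least 50 reads in that stretch did not share the difference. Their median was 0.12, their range -1.29 to 2.08, and 3 of 8 were below 0. PGSC0003DMG400001612, between the first 2 runs, had 22 reads uncut and 83 cut, a difference of 2.08 (1.39 to 2.83). PGSC0003DMG400001606, next to the pair, had 2875 and 2157 reads, at -0.25. The 7 genes under 50 reads in the stretch had 66 reads uncut and 60 cut in all. Around the first 2 runs, genes at -2 or less thus lay beside genes with values near or above 0. Directly before the third run PGSC0003DMG400042840 stood at -0.99 (-1.65 to -0.36). PGSC0003DMG400038172 directly after it stood at -0.96 (-1.48 to -0.46), followed by PGSC0003DMG400001646 at -1.10.

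**Figure D3:**
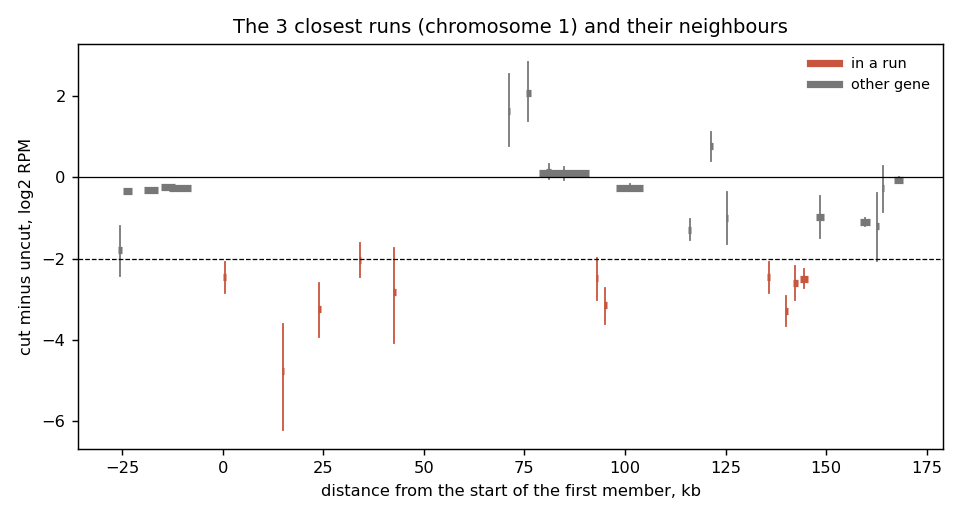
Cut minus uncut (log2 RPM) against the distance in kb from the start of the first member, for the 3 closest runs on chromosome 1 and the genes around them; each horizontal bar spans the gene, each vertical line is the 95% counting interval, and the dashed line marks -2. The 11 members (red) lie between -4.76 and -2.03, and the 8 other genes among them (grey) between -1.29 and 2.08.

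The run of 4 genes on chromosome 5 (47100364 to 47133403) was led in level by PGSC0003DMG400021830, with 3521 reads uncut and 335 cut (-3.23, interval -3.39 to -3.07). PGSC0003DMG400021821 had 222 and 20 reads (-3.31), PGSC0003DMG400041302 71 and 8 reads (-2.98), and PGSC0003DMG400021820 167 and 35 reads (-2.09). The first 3 differences lay within 0.5 of each other while the levels in the uncut library ran from 0.90 to 6.54 log2 RPM.

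The run of 4 genes on chromosome 6 (54733449 to 54750834) had differences from -2.94 to -2.15. Its genes were PGSC0003DMG400005892 with 103 and 12 reads, PGSC0003DMG400005926 with 710 and 127, PGSC0003DMG400005925 with 339 and 57, and PGSC0003DMG400005891 with 139 and 28. The last one had an upper bound of -1.55, and the last gene of the run on chromosome 5 one of -1.56. With the median difference set to 0, PGSC0003DMG400005926 (-1.98) and PGSC0003DMG400005891 (-1.81) stood above -2 and no run was left here, while 3 of the 4 genes on chromosome 5 stayed in a run.

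Among runs of 3 the one with the lowest median, -4.08, lay on chromosome 12 (59393396 to 59403954). PGSC0003DMG400004670 had 3390 reads uncut and 179 cut (-4.08, interval -4.30 to -3.86). PGSC0003DMG400004575 had 1144 and 60 reads (-4.09), and PGSC0003DMG400004576 359 and 30 reads (-3.42, upper bound -2.88). All 3 upper bounds lay far below -2.

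The next, on chromosome 3 (40355149 to 40367355), joined genes with unlike values. PGSC0003DMG400023016 had 7099 reads uncut and 684 cut (-3.21). PGSC0003DMG400023004 had 1954 and 335 reads (-2.38). PGSC0003DMG400023015 between them had 65 reads in the uncut library and 0 in the cut library, at least 19.3-fold lower. The other 22 runs of 3 had medians from -3.14 to -2.07 and 50 to 1536 reads in all in the cut library.

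**Figure D4:**
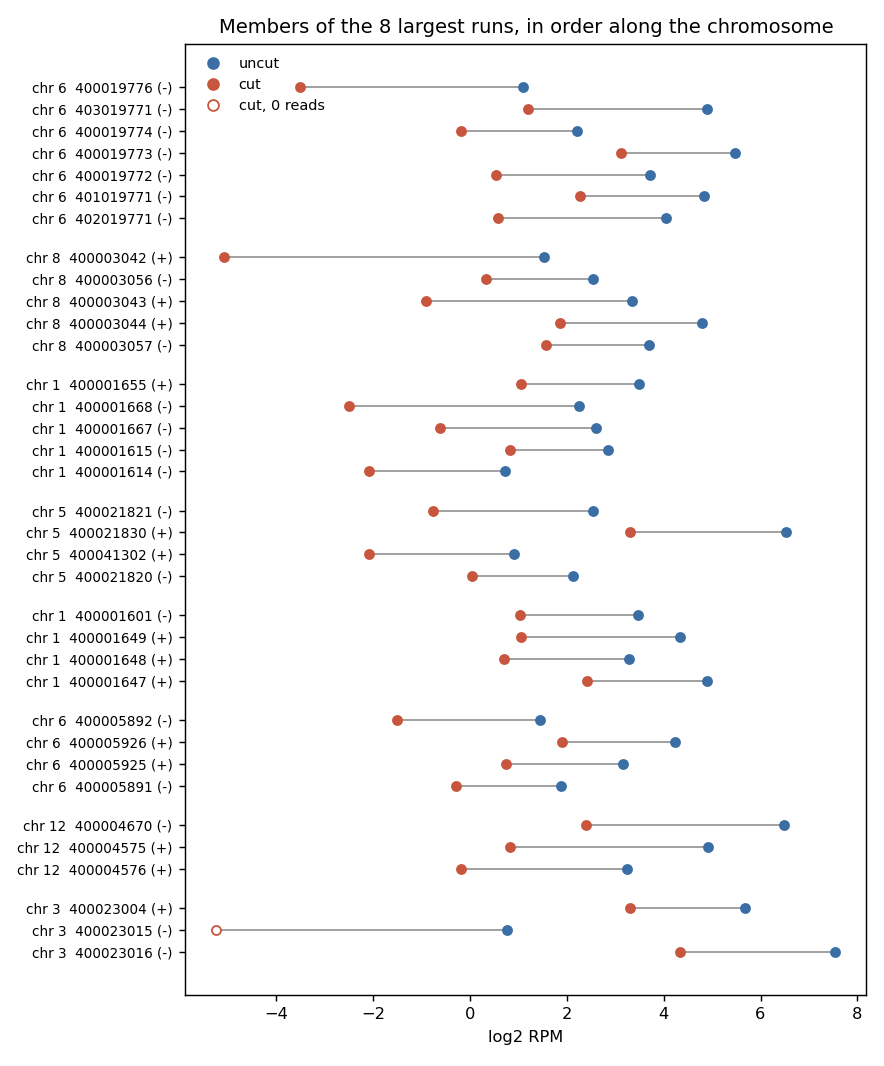
Level (log2 RPM) in the uncut (blue) and the cut library (red) of each member of the 8 runs with the most genes, in order along the chromosome, with the end of the PGSC identifier and the strand; an open point marks 0 reads. The lines are shortest near a difference of -2 and longest for PGSC0003DMG400003042 on chromosome 8, at -6.62.

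The runs of 2 with the most reads were mostly 1 strong gene beside a weak one. On chromosome 8, PGSC0003DMG400012292 (55797780 to 55799024) had 212843 reads uncut and 44985 cut (-2.08, interval -2.09 to -2.06), the highest level of any member. Its neighbour PGSC0003DMG400012290 had 68 and 15 reads (-2.02, interval -2.93 to -1.19). Per kb of gene the uncut levels were 4504 and 0.393 RPM, one gene with many reads beside one with few. Both stood above -2 with the median difference set to 0 (-1.74 and -1.68) and with the upper quartiles made equal (-1.98 and -1.92), so this run was lost under both scalings.

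On chromosome 10, PGSC0003DMG400025007 (1838664 to 1842488) had 46028 and 7450 reads (-2.46) and PGSC0003DMG400025008 277 and 53 (-2.22). On chromosome 11, PGSC0003DMG400008078 (41686169 to 41688602) had 38620 and 6012 reads (-2.52) and PGSC0003DMG400008077 733 and 99 (-2.72). Both pairs lie on the plus strand with 16987 and 7378 bp between the genes.

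The other 2 were overlapping models on opposite strands. On chromosome 2, PGSC0003DMG402001384 (45222198 to 45223287) lies inside PGSC0003DMG401001384 (45220747 to 45223287). The first had 42064 reads uncut and 6959 cut, the second 45321 and 8828. On chromosome 3, PGSC0003DMG400002550 (18999 and 3042 reads) lies inside PGSC0003DMG400002632 (19868 and 3420 reads). Reads on the shared stretch cannot be told apart. With the median difference set to 0 the pair on chromosome 3 stayed a run and the pair on chromosome 2 did not, nor did the pair on chromosome 10.

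The plainest case was the shortest run, on chromosome 3, where PGSC0003DMG401002532 on the minus and PGSC0003DMG402002532 on the plus strand have the same start and end (60195324 to 60196972). They had 1821 and 1822 reads in the uncut library and 350 each in the cut library. The libraries were made with a stranded kit, but the strand setting used in counting was not given in the sources used here.

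Over all runs, 21 of the 199 neighbouring pairs overlapped (10.6%), against 4.87% of the 21185 pairs of neighbours with at least 50 reads. Of the 21, 15 lay on opposite strands (71.4%, against 75.5% of all overlapping pairs) and 14 shared the last 6 digits of their identifiers. Both read counts agreed within 1.25 times in 9 of the 21 overlapping pairs, 8 of them on opposite strands, and in 3 of the other 178 pairs. An overlapping pair was the whole of 13 runs and part of 7 further ones, which left 138 runs without any. Without joining overlapping neighbours 322 genes in 144 runs remained.

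Spacing was compared first. The median distance from the end of one gene to the start of the next was 5936 bp, against 6224 bp over all pairs. Leaving out overlapping pairs it was 7754 bp against 6984 bp. Distances of 0 to 5 kb were found in 37.7% of pairs, against 40.5%, and distances over 100 kb in 3.02%, against 6.05%.

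Strand was compared over pairs that did not overlap. In runs 109 of 178 such pairs lay on one strand (61.2%), against 53.5% of all such pairs. Genes whose starts face each other (divergent) made up 31 pairs (17.4%, against 24.3%), and genes whose ends face each other (convergent) 38 pairs (21.3%, against 22.1%). Among pairs under 1 kb apart 3 of 26 were divergent (11.5%, against 7.98%), which rests on few pairs. Members of a run are not independent of each other, so these shares carry no test. All genes were on one strand in 83 of the 158 runs and in 11 of the 30 runs of 3 or more. Identifiers that share their last 6 digits, which mark models of one locus number, made up 9.55% of the pairs in runs and 6.21% of all pairs.

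**Figure D5:**
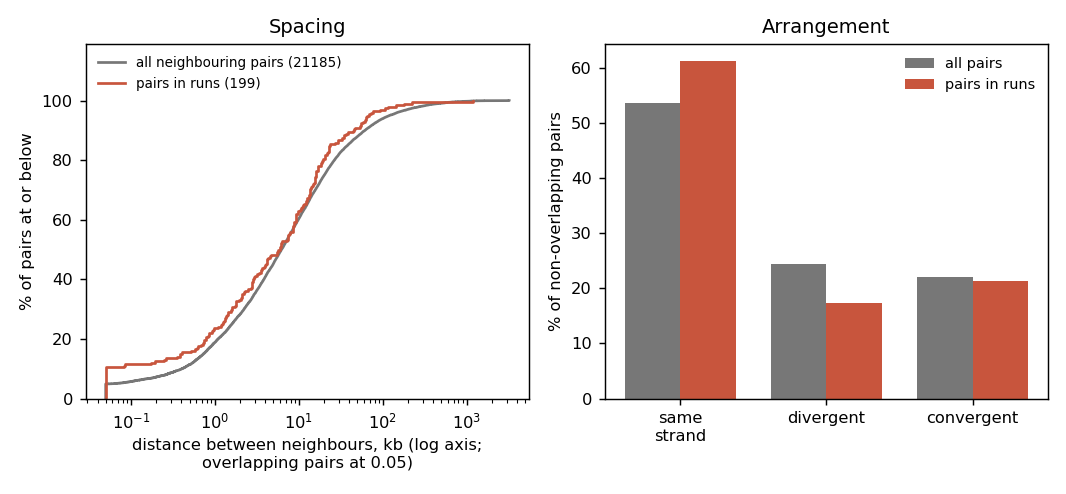
Left, cumulative percent of pairs by the distance between neighbours in kb on a log axis, with overlapping pairs drawn at 0.05 kb; right, percent of non-overlapping pairs on the same strand, divergent or convergent. Pairs in runs (red, 199) and all pairs (grey, 21185) have medians of 5936 and 6224 bp, and 61.2% and 53.5% of non-overlapping pairs lie on one strand.

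Differences were also compared within runs. The distance between the highest and the lowest difference in a run had a median of 0.67 on the log2 scale, 68 runs stayed within 0.5 and 20 runs spread over more than 2. Since every member lies at or below -2, a narrow range is in part fixed by the choice. The run with the lowest median, -5.14, was the pair PGSC0003DMG400029277 (795 reads uncut and 22 cut) and PGSC0003DMG400029276 (302 and 7 reads) on chromosome 12. Among runs with reads in both libraries for each member, the next lowest median was that of PGSC0003DMG400013130 (378 and 10 reads, -5.08) and PGSC0003DMG400013134 (695 and 26 reads, -4.58) on chromosome 1. These 2 pairs were chosen for display after their values were seen.

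Genes under 50 reads were passed over when runs were built. In 161 of the 199 pairs (80.9%) no such gene lay between the members. The other pairs skipped 97 genes, of which 59 had 0 reads in both libraries. The 97 genes together had 427 reads uncut and 197 cut, a log2 ratio of -0.95 in RPM, against 0.12 over all 16278 genes under 50 reads. Of the 38 with reads, 23 had more RPM uncut and 15 cut. If genes under 50 reads were kept in the order and ended a run, 290 genes in 129 runs remained.

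Genes beside the runs show where each ended. The 314 genes next to a run had a median difference of -0.39, against -0.26 for all genes above -2. Differences of -1 or less were seen in 74 of them (23.6%, against 16.4%), and differences of 2 or more in 29 (9.24%, against 8.88%). Of these flanking genes 111 (35.4%, against 39.5%) were higher in the cut than in the uncut library. Successive runs lay within 100 kb of each other in 9 cases and within 250 kb in 17, and 2 were separated by a single gene with at least 50 reads.

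Names were at hand for few members. The names come from an annotation table that covers 353 named genes picked by a study of ultrasound on such explants. That study may have used the same cut library, and the named genes are no sample of all genes. Of the 325 with at least 50 reads, 54 were lower (16.6%, against 7.35% of all genes with at least 50 reads) and 8 lay in runs (2.46%, against 1.68%). Among the lower genes, 8 of the 54 named ones lay in runs, against 22.9% of all 1559. All 8 are given here.

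A pair on chromosome 2 consisted of 2 genes with the same name, pectinesterase-like. Pectinesterases remove methyl groups from pectin in the cell wall. PGSC0003DMG400002085 (36018545 to 36020776, minus strand) had 3787 reads uncut and 653 cut, a difference of -2.37 (-2.49 to -2.25). PGSC0003DMG400002074 (36047869 to 36053594, plus strand) had 325 and 16 reads, a difference of -4.18 (-5.00 to -3.46). They lie 27092 bp apart with their starts facing, and their intervals do not overlap.

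CASP-like protein 1 belongs to a family of membrane proteins whose founding members, in Arabidopsis, organise the Casparian strip, the barrier in the endodermis of roots. Its gene PGSC0003DMG400022659 (chromosome 1, 58572019 to 58575739) had 915 reads uncut and 11 cut, a difference of -6.21 (-7.22 to -5.37). The neighbour on the same strand, PGSC0003DMG400022658, had 134 and 14 reads (-3.09). The difference of PGSC0003DMG400022659 was the lowest among the named members. Another gene of this family name, CASP-like protein 4D1 (PGSC0003DMG400027047), had 1742 reads uncut and 1743 cut (0.17) and lay in no run.

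Peroxidase 3-like belongs to the secreted plant peroxidases, which oxidise phenolic compounds in the cell wall. Its gene PGSC0003DMG400005273 (chromosome 5, 42534436 to 42536130) had 4013 and 296 reads, a difference of -3.60 (-3.77 to -3.43). PGSC0003DMG400005279 beside it had 811 and 39 reads (-4.21). Laccases oxidise the building blocks of lignin. The gene named laccase-12-like, PGSC0003DMG402027116 (chromosome 5, 47683220 to 47685570), had 135 and 29 reads (-2.05, interval -2.69 to -1.47), and PGSC0003DMG401027116, with the same locus number, 366 and 74 (-2.14). The peroxidase pair stood far below the limit and the laccase pair near it, and with the median difference set to 0 neither laccase gene was at -2 or less.

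Fasciclin-like arabinogalactan protein 12 is a glycoprotein of the cell surface, of a type tied to secondary walls in Arabidopsis stems. Its gene PGSC0003DMG400041435 (chromosome 9, 6077823 to 6078542) had 1113 and 184 reads (-2.43), and its neighbour PGSC0003DMG400001754 313 and 16 (-4.12, interval -4.95 to -3.40). Non-specific lipid-transfer protein 2, one of the small secreted proteins that bind lipids, was encoded by PGSC0003DMG400030587 (chromosome 5, 3453699 to 3454490) with 6534 and 858 reads (-2.76). It lies on the minus strand between PGSC0003DMG400030574 (3048 and 599 reads, -2.18) and PGSC0003DMG400030573 (398 and 79 reads, -2.17), both on the plus strand, which were less low and stood above -2 with the median difference set to 0.

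The remaining name was late embryogenesis abundant protein At5g17165-like isoform X1. Proteins of this name accumulate in drying seeds and in tissue short of water. Its gene PGSC0003DMG400027031 (chromosome 6, 53528065 to 53529134) had 2464 and 292 reads (-2.91, interval -3.09 to -2.74). It lies between PGSC0003DMG400026933 (3164 and 568 reads, -2.31) and PGSC0003DMG400035689 (66 and 10 reads, -2.56), and with the median difference set to 0 a pair of these 3 genes was left.

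Lists by name put these members beside genes of like name among the 353 named genes. Those were picked by the ultrasound study and are no sample of a whole family. Of the named genes with at least 50 reads 16.6% were lower. Over all genes with at least 50 reads 7.35% were lower and 8.22% higher by 2 or more, with a median of -0.34. Of the pectinesterases 2 of 4 with at least 50 reads were lower, both in the run above, and 0 higher (median -0.77). Of the peroxidases 4 of 6 were lower, 1 of them in a run, and 0 higher (median -2.91). PGSC0003DMG400025478 and PGSC0003DMG400005872 among these had 0 reads in the cut library. Of the non-specific lipid-transfer proteins 3 of 12 were lower, 1 of them in a run, and 2 higher (median -0.04). No gene of the other families lay in a run. Among those, 2 of 6 kirola-like genes were lower and 3 higher (median 0.74). Of 5 xyloglucan endotransglucosylase/hydrolase genes 2 were lower and 1 higher. Lower were also 2 of 2 germin-like genes, 1 of 4 expansins and 1 of 7 chlorophyll a-b binding proteins, with 0 higher in each. Of the 14 protease inhibitors 0 were lower and 4 higher, of 6 cytochrome P450 genes 0 and 1, and of 3 aquaporin genes 0 and 2.

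Markers of organs were compared between the libraries as a check of the tissue label. Of 12 leaf (photosynthesis) genes with at least 50 reads 1 was lower and 0 lay in a run, with a median of -0.25 and a summed level of 1394 RPM uncut and 2085 RPM cut. The 4 named as encoded in the chloroplast, photosystem II protein D1 among them, had higher values in the cut library (1123 and 1893 RPM summed). The 7 chlorophyll a-b binding genes had a median of -0.89, 6 of 7 were below 0, and their summed level was 205 RPM uncut and 120 RPM cut. The root-linked list holds CASP-like proteins, CASPARIAN STRIP INTEGRITY FACTOR 2-like, protein RSI-1 and the peroxidases counted above, and so includes 2 members. Its gene with the most uncut reads was that of the integrity factor, PGSC0003DMG400030948 (12541 uncut and 876 cut, -3.67). Of the 12 root-linked genes 10 had at least 50 reads, 6 were lower and 0 higher. Their median was -2.91, their summed level 681 and 140 RPM, and 3 of the 12 had 0 reads in the cut library. PGSC0003DMG400025478 (51 reads uncut and 0 cut) and PGSC0003DMG400005872 (76 and 0) reached 50 reads through the uncut library alone. The 2 members were chosen by the difference itself. The count of lower genes and the median were thus in part fixed by the choice, and the list rests on names alone. Of 7 stem and xylem genes, which include the laccase and the fasciclin-like gene, 5 were lower (median -2.24, summed level 124 and 32.3 RPM). Leaf genes were thus present in both libraries. The part that roots or stems in the uncut material had in the runs was not tested.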

How the data were processed

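One table with 2 columns was used. The study whose methods are used here treated such explants with ultrasound and may share the cut library. It states that its methods, save for minor differences, were also reported in a separate paper on cutting. According to those methods the authors removed 10 bases from the 5′ ends (Trim Galore 0.5.0), aligned paired reads with HISAT2 2.1.0 to SolTub 3.0, kept a mapping quality of 60, and in SeqMonk 1.42.0 counted reads in exons per gene. The deposited values are log2 RPM, reads scaled to the reads of input. Tools and versions other than SeqMonk and SolTub are also in the submitters' processing notes.

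Reads were recovered here by dividing each linear value by that of 1 read. All tested values were whole within 0.05 read, and genes without reads stood at 0.9 read, a value they kept in the differences. For folds, 0 was taken as 3 reads (0.0790 RPM uncut, 0.0886 RPM cut). Run finding was tested on simulated reads. With 1 library per condition no test, SD or p-value was possible. Intervals are Clopper-Pearson 95% intervals of the share of reads, turned into ratios. Genes on chromosome 00 (381 with at least 50 reads, 32 lower) and 91 features with other identifiers (4 lower) stayed out of the runs. None of the 39021 PGSC identifiers matched the RefSeq gene table (SolTub 3.0), so names are those of the annotation table and no sequences are shown.

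Named are the members of the 8 runs with the most genes (ties by lowest median difference), members with a name, the 5 runs of 2 with the most uncut reads, and 3 genes on either side of -2. Other genes were named after their values were seen. The rule, the members and the lists were chosen with earlier results of these data known. Python 3.11.15, numpy 2.4.6, pandas 2.3.3, scipy 1.17.1 and matplotlib 3.10.9 were used.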

Additional observations from a re-analysis of the deposited data

How the results depend on the processing

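Of 15 alternatives, 9 left the 357 genes in 158 runs within 1.5 times. A minimum of 10 reads gave 546 genes in 240 runs, a difference of -1 gave 2389 genes in 958 runs, and one of -3 gave 61 genes in 30 runs. Setting the median difference to 0, a shift of 0.34, gave 194 genes in 89 runs, log2(RPM + 1) gave 128 genes in 60 runs, and an upper interval bound of -2 or less gave 183 genes in 87 runs. In these last 3, fewer genes pass by construction. Of the 56 members named by rule, 37 to 49 stayed at -2 or less under the 4 scalings and pseudocounts. The 3 nearest to -2 were above it in all 4, the 3 genes just outside stayed outside, and 0 changed sign. Same-strand pairs made up 51.0% to 65.7% of pairs under all 15 alternatives, against 57.8% in the 158 runs. Overlapping pairs count in these shares, unlike in the strand shares given above. Over all neighbouring pairs, 10786 of 20153 non-overlapping and 253 of 1032 overlapping pairs lay on one strand. The lowest share, 51.0%, came with a difference of -1 or less and was not above the share over all those pairs. No paired analysis was possible because only 1 library stood for a condition, and no replicate could be left out. Few reads in the cut library limit 49 members.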
